A study of Rattus norvegicus with 15 samples.

Results

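The comparison set whole blood drawn 12 h after modelling of deep venous thrombosis against whole blood of sham rats. Both groups were Sprague-Dawley rats (an outbred laboratory stock), all male, 6 to 8 weeks old and weighing 250 to 300 g at the start. The 3 sham libraries are placed at 0 h by the labels and carry run label A&B, and the 3 libraries at 12 h carry run label C. These 6 of the 15 libraries of the series were compared, with 1 h, 6 h and 72 h (3 libraries each) used for the spread and as neighbouring times. The sources used here do not give how the clot was made, what the sham rats underwent or whether each library came from its own animal. The p-values therefore measure the spread between these samples alone, and that spread may be technical. Run label and time after modelling cannot be told apart in this comparison.

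Deep venous thrombosis is the formation of a fibrin-rich clot in a deep vein, in which platelets, red cells and white cells take part. Neutrophils and monocytes are recruited to such a clot early, and the blood that keeps circulating holds the cells that were not retained or were newly released from marrow. Whole-blood RNA is dominated by transcripts of reticulocytes, the young red cells, and reports on white cells through the smaller remainder. In bulk blood, fewer cells of a type and less RNA per cell cannot be told apart.

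Features carry the IDs of annotated genes or of assembled gene models. A feature was a member when its normalised read count (reads divided by a factor for its library) was at least 10 in 3 or more of the 6 libraries. Of 17599 features 10020 were members, 7993 annotated and 2027 assembled. At the edge of this rule 600 members reached 10 in exactly 3 libraries and 683 features fell short with 2. Some members passed through a single group, 50 through the sham libraries and 53 through those at 12 h, and so had to differ to some degree. Of these, 7 and 20 are among the features counted below as different without 12 h replicate 3. The files do not pair feature IDs with gene names, and the reference table matched 0 of them, so features are described by ID, kind, level and time course, no cell type was checked against its markers, and no sequence is shown.

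The 3 libraries at 12 h were unlike each other. Replicate 3 had a library factor of 2.67, against 0.782 and 0.584 in replicates 1 and 2, while the sham factors were 1.00, 1.28 and 1.55. No factor at 12 h therefore lay within the sham range, with a pair below it and the last above it. Total reads did not follow this order, at 35.6, 31.8 and 36.9 M (mega-reads) at 12 h and 32.6, 37.5 and 31.0 M in sham. Reads were found on 12290, 11709 and 14524 features at 12 h and on 12983 to 13555 in sham.

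**Figure D1:**
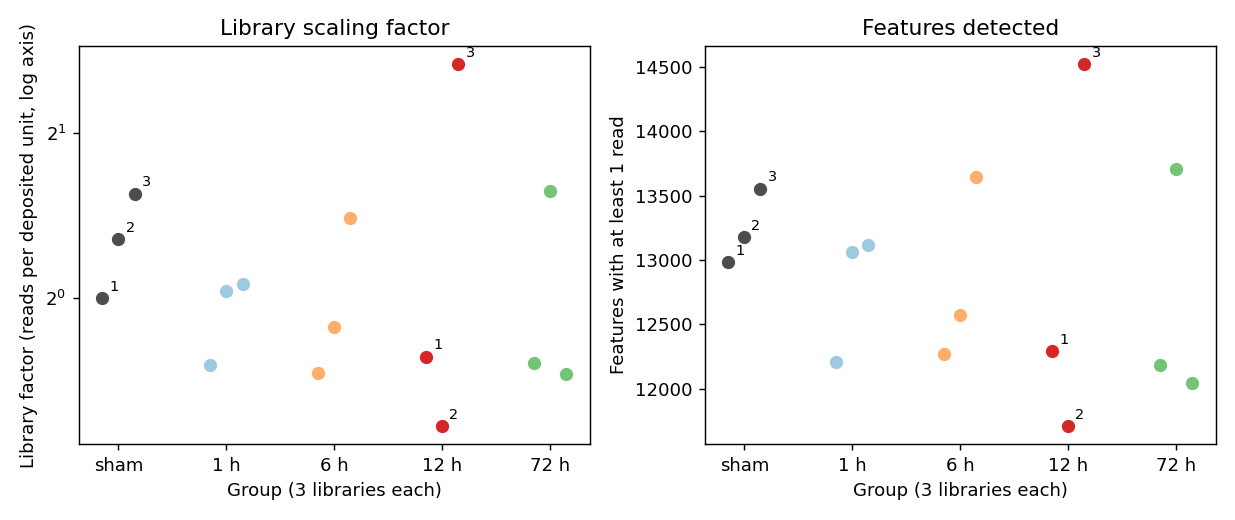
Library factor (log axis, left) and number of features with at least 1 read (right) for each of the 15 libraries by group, with replicate numbers beside the sham and 12 h points. At 12 h replicate 3 has the highest factor (2.67) and the most features (14524) of all libraries and replicate 2 the lowest factor (0.584) and the fewest features (11709).

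Across the 10020 features, which are not independent replicates, replicate 3 correlated on the log2 scale with 12 h replicates 1 and 2 at r = 0.822 and 0.780, and with the sham libraries at 0.877, 0.897 and 0.905. Replicates 1 and 2 correlated with each other at 0.900, and the sham libraries among themselves at 0.919 to 0.928. The library nearest to 12 h replicate 3 over the whole series was sham replicate 3. A nearest library in another group was not particular to it. 12 h replicate 1 was nearest to 6 h replicate 2, 6 h replicate 3 to 72 h replicate 2, and 72 h replicate 2 to sham replicate 1. Whether 12 h replicate 3 is what its label says, or differs in quality, was not tested, and the counts with and without it are to be read with that limit. The median distance of a feature from its group mean was 0.639 log2 units in replicate 3, against 0.355 and 0.479 in the other two libraries at 12 h and 0.216 to 0.247 in sham. The comparisons are therefore given with and without that library.

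Most reads lay on 5 assembled models, which took 83.9 to 84.9% of reads in sham and 83.3, 82.7 and 79.3% at 12 h. The most abundant of them held 51.6, 58.6 and 53.5% of reads in sham and 49.4, 46.9 and 40.8% at 12 h. Every 12 h library lay below every sham library in this share. The difference reached the smallest two-sided p that 3 against 3 values allow (exact permutation p = 0.1, adjusted 0.25 over the 5 models). The model ranked 3 held 9.97, 4.12 and 5.11% in sham and 6.51, 11.8 and 14.2% at 12 h, and these ranges overlapped (exact permutation p = 0.2, adjusted 0.25). The models ranked 2, 4 and 5 also overlapped between groups. Outside these models, the most abundant features making up 50% of the reads numbered 59, 70 and 106 in sham and 46, 42 and 180 at 12 h, so replicate 3 spread its remaining reads over more features than any other library and replicates 1 and 2 over fewer than any sham library.

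With all libraries, 6 of 10020 features (0.0599%) differed between 12 h and sham in limma at adjusted p under 0.05, 4 higher (0.0399%) and 2 lower (0.0200%). Each of the 6 had all 12 h values on one side of all sham values. Before adjustment 1369 features, the 6 included, had a p under 0.05. The annotated features among the 6 numbered 2 higher and 2 lower.

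ENSRNOG00000013973 had normalised read counts of 25.9, 46.9 and 9.05 in sham and 1340, 2464 and 344 at 12 h. The lowest 12 h library lay well above the highest sham library, and replicate 3 was the lowest of the 12 h group. The difference was 5.48 on the log2(value + 1) scale (SE 0.859, limma adjusted p = 0.0298), and 6.27 without replicate 3 (SE 0.925, limma adjusted p = 0.00339). The reads themselves, before any scaling, numbered 26, 60 and 14 in sham and 1048, 1438 and 919 at 12 h. At 6 h the counts were 1177, 184 and 461, and at 1 h and 72 h no library exceeded 26.5. The 12 h level was not shown to differ from that at 6 h (log2 difference 1.17, SE 0.859, limma adjusted p = 0.991).

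ENSRNOG00000013280 had counts of 29.9, 123 and 50.4 in sham and 732, 1593 and 452 at 12 h. The groups did not overlap, and sham replicate 2 stood above the other sham libraries. The log2 difference was 3.80 (SE 0.567, limma adjusted p = 0.0298), and 4.21 without replicate 3 (SE 0.599, limma adjusted p = 0.00173). Per M reads outside the 5 dominant models its level was 6.04, 28.0 and 15.7 in sham and 96.0, 170 and 158 at 12 h, a scale on which replicate 3 no longer was the lowest at 12 h. Counts at 6 h were 256, 347 and 763, and those at 1 h and 72 h ran from 13.2 to 35.7, inside or below the sham range.

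The 2 assembled models that rose were far less abundant, and both were members through the 12 h libraries alone, so that they had to differ to some degree. The first had counts of 5.98, 0 and 0 in sham, which rest on 6 reads in all, and of 71.6, 58.2 and 16.5 at 12 h (log2 difference 4.46, SE 0.750, limma adjusted p = 0.0358; 5.10 without replicate 3, SE 0.775). With no filter on low values its limma adjusted p was 0.0511. Every library at 1 h, 6 h and 72 h was also above every sham library, with 12.7 to 35.8 counts. The second had 2.99, 3.12 and 6.47 in sham and 104, 154 and 22.8 at 12 h (log2 difference 3.87, SE 0.617, limma adjusted p = 0.0298; 4.68 without replicate 3, SE 0.525). It too was above all sham libraries in every other library of the series, with 71.5 to 174 counts at 6 h and 10.3 to 86.7 at 1 h and 72 h.

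ENSRNOG00000009636 fell from 64.8, 57.0 and 103 in sham to 10.2, 10.3 and 13.5 at 12 h. The 12 h values lay close together on this scale but rest on few reads, 8, 6 and 36 (65, 73 and 159 in sham). Per M reads outside the dominant models they were 1.34, 1.09 and 4.71, with replicate 3 the highest, against 13.1, 12.9 and 32.0 in sham. The log2 difference was -2.59 (SE 0.403, limma adjusted p = 0.0298), and -2.71 without replicate 3 (SE 0.445, limma adjusted p = 0.00269). Counts were 71.5 to 136 at 1 h, 11.0 to 29.4 at 6 h and 26.3 to 34.4 at 72 h. At 72 h, under the same run label as sham, all 3 libraries were below all sham libraries, but the difference did not pass (log2 difference -1.20, SE 0.403, limma adjusted p = 0.575).

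ENSRNOG00000023881 fell from 171, 142 and 211 to 46.0, 30.8 and 64.3 (log2 difference -1.91, SE 0.324, limma adjusted p = 0.0358; -2.17 without replicate 3, SE 0.326, limma adjusted p = 0.00181). Of the 6, it was the feature whose unscaled reads overlapped between groups, with 172, 182 and 327 reads in sham and 36, 18 and 172 at 12 h. Per M reads outside the dominant models the groups were apart again, at 34.6, 32.2 and 65.7 against 6.04, 3.28 and 22.5. Its counts were 59.0 to 103 at 6 h and 69.8 to 104 at 72 h, all below the lowest sham library, and 176 to 244 at 1 h, all above it.

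**Figure D2:**
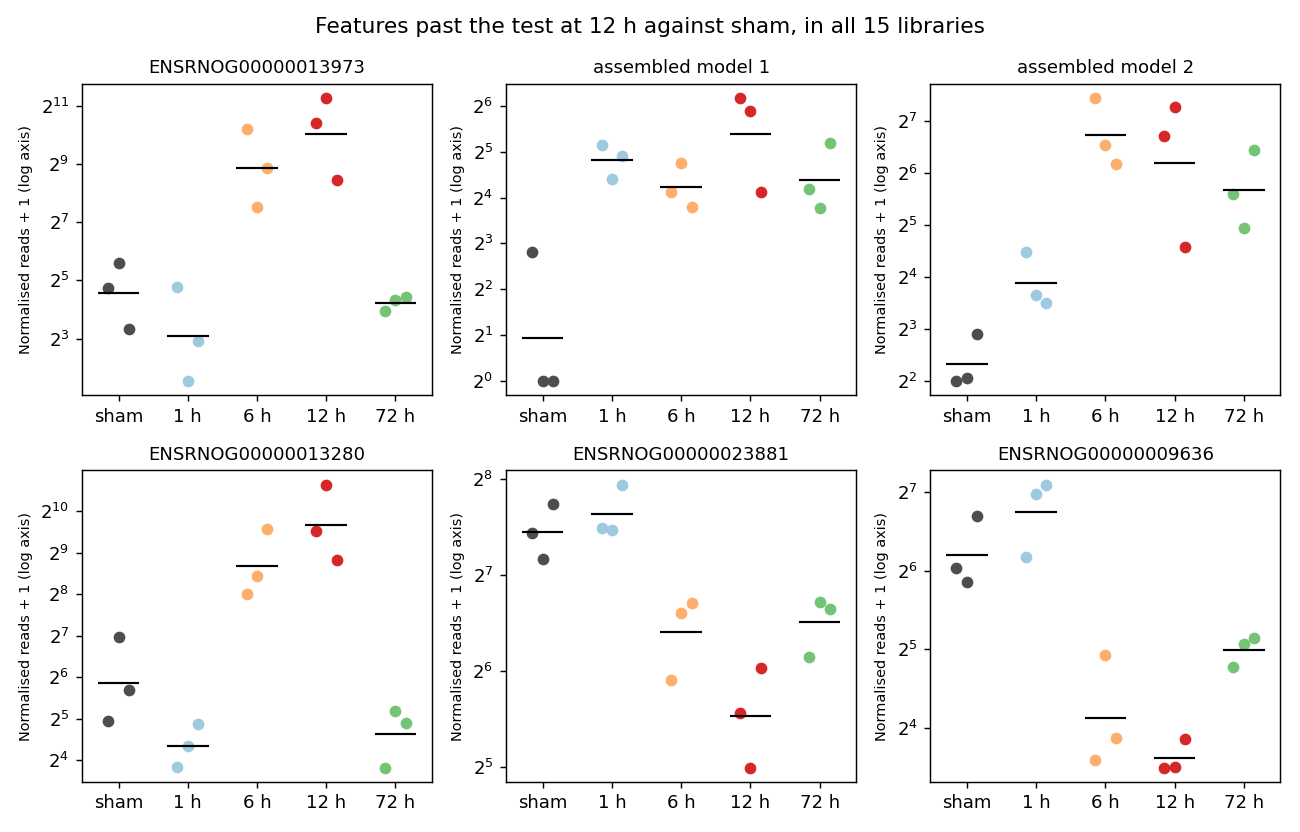
Normalised reads plus 1 (log axis) of the 6 features past adjusted p 0.05 at 12 h against sham, 1 point per library in the 5 groups, with bars at the group means of the log2 values. The annotated features that rose are high at 6 h and 12 h and at or below sham at 1 h and 72 h, whereas both assembled models lie above sham in every later group.

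The count of 6 rested on single libraries, those of sham included. It was 3, 1 and 0 without sham replicate 1, 2 and 3, and 0 without 12 h replicate 1 or 2 (893 and 710 features at unadjusted p under 0.05). Of the 3, only the first assembled model was among the 6, and the 1 was ENSRNOG00000013280. Without 12 h replicate 3 the count was 1551 (15.5%), 806 higher (8.04%) and 745 lower (7.44%), and all 6 were among them. The typical error did not change much, with a median SE of 0.482 log2 units with the library and 0.464 without it, while the median size of a difference went from 0.471 to 0.724. With 2 libraries at 12 h, the spread of that group is largely taken from the other groups.

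**Figure D3:**
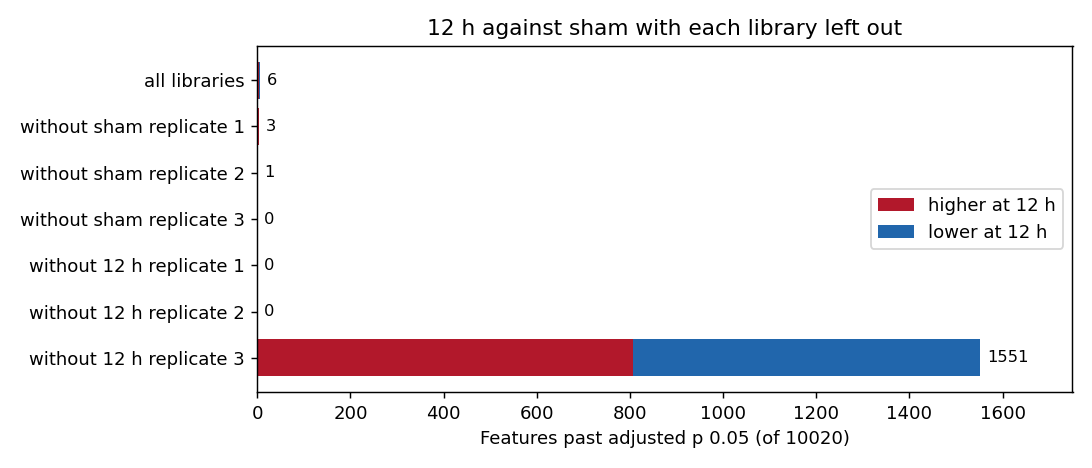
Number of features past adjusted p 0.05 at 12 h against sham in limma, with all libraries and with each of the 6 libraries left out in turn, split into higher and lower. The count is 6 with all libraries, 0 to 3 without any library other than 12 h replicate 3, and 1551 without that library.

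The 806 features higher without replicate 3 had a median log2 difference of 1.72 (0.85 to 7.47), and the 745 lower ones -1.47 (-6.40 to -0.79). The median count over the 806 was 168, 134 and 111 in the sham libraries, 396 and 471 in 12 h replicates 1 and 2, and 130 in replicate 3. Over the 745 it was 95.7, 93.0 and 106 in sham, 40.9 and 32.6 in replicates 1 and 2, and 89.7 in replicate 3. On both lists replicate 3 thus had a median close to the sham libraries, although it was not used to form them. The medians over all 10020 features ran from 48.0 to 55.0 in the 6 libraries.

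Taken feature by feature, replicate 3 lay above all sham libraries for 196 of the 806 (24.3%), within their range for 365 and below all of them for 245 (30.4%). For the 745 it lay below all sham libraries for 287 (38.5%), within their range for 238 and above all of them for 220 (29.5%). Over all features tested it lay above for 31.3% and below for 31.7%. The same sham libraries enter the lists and these positions, and no test was made of them.

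**Figure D4:**
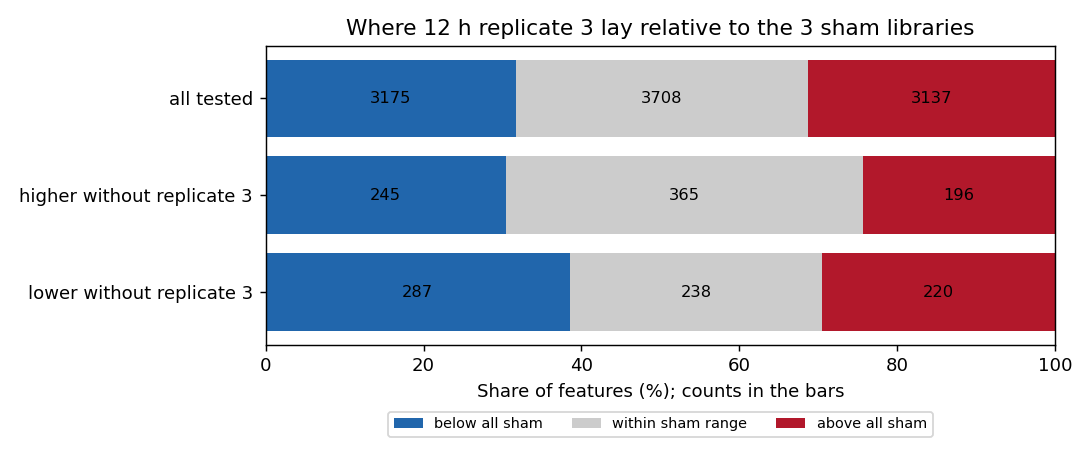
Share of features for which 12 h replicate 3 lay below, within or above the range of the 3 sham libraries, for all 10020 features and for those higher (806) or lower (745) at 12 h without that library, with counts in the bars. Replicate 3 was below all sham libraries for 245 of the 806 features that were higher in the other two libraries.

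Differences without replicate 3 moved with abundance. By level over the 6 libraries, the features were divided into 4 equal parts of 2505. The part with the highest levels (142 and above) held 696 calls, 27.8% of it, of which 480 were higher and 216 lower. The part with the lowest levels (below 21.2) held 197, 7.86% of it, of which 45 were higher and 152 lower. The median difference from sham was -0.40 in the lowest part and 0.47 in the highest without replicate 3, and replicate 3 itself had 0.18 and -0.22 there. Assembled models made up 36.7% of the features that were higher and 18.5% of those that were lower, against 20.2% of the features tested. The part with the highest levels held 46.6% of all assembled models and 59.6% of the features that were higher. Kinds were not compared at equal level.

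**Figure D5:**
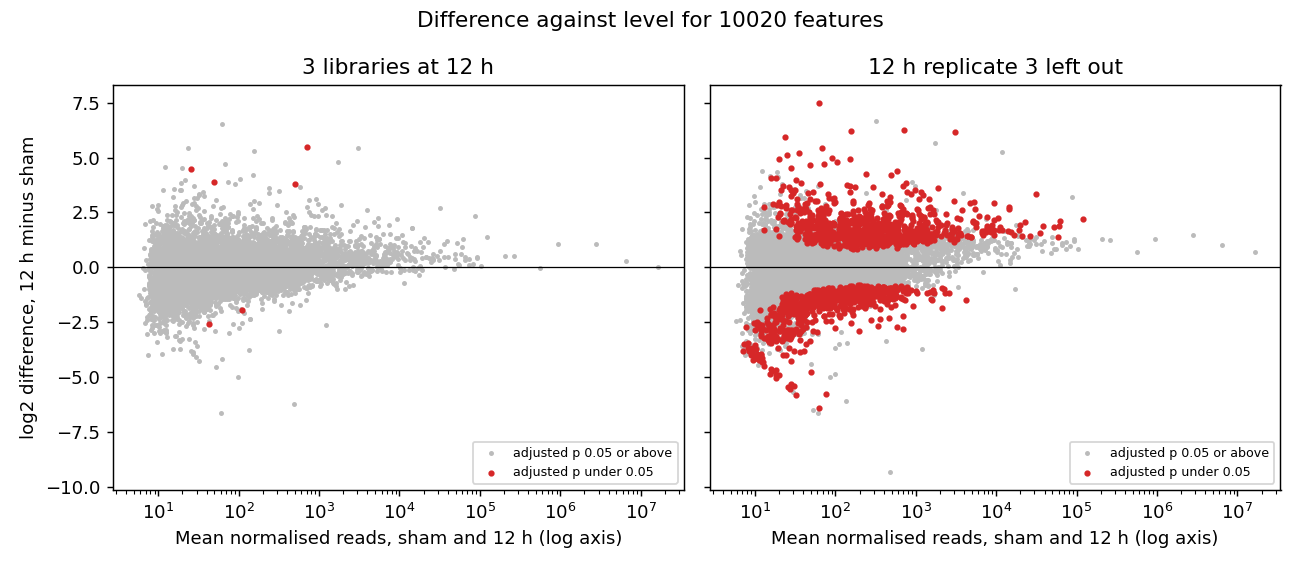
log2 difference between 12 h and sham against the mean normalised reads (log axis) for the 10020 features, with all 3 libraries at 12 h (left, 6 features past adjusted p 0.05 in red) and without replicate 3 (right, 1551 in red). Without replicate 3 most of the red points at high levels lie above 0 (480 of 696 in the highest of 4 equal parts).

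The library factor moved with the same lists. In the 9 libraries of 1 h, 6 h and 72 h, the slope of each feature on the log2 factor within groups was taken. It was negative for 94.4% of the 806 higher features and for 12.2% of the 745 lower ones, against 40.8% of all features. These 9 libraries do not enter the 12 h and sham means, but they gave part of the spread in the fit behind the lists. Without replicate 3 both factors at 12 h were below all sham factors. With the log2 factor as a covariate, all 1551 kept their direction and 80 of them passed adjusted p 0.05 (0.798% of the features tested, 46 higher and 34 lower), and no other feature did. With the covariate and all 15 libraries, 475 features passed (4.74%, 322 higher and 153 lower), the 6 among them, with a log2 difference of 5.21 for ENSRNOG00000013973 (SE 0.820, limma adjusted p = 0.00588) and of -2.53 for ENSRNOG00000009636 (SE 0.389, limma adjusted p = 0.00140). Of the 475, 437 were also among the 1551, and 59 also passed with the covariate without replicate 3. The slope on the factor draws heavily on that library, whose log2 factor was 1.42 against -0.35 and -0.78 in 12 h replicates 1 and 2. The 475 is therefore not a count freed of the factor. The part of the factor in these differences was not tested beyond these fits.

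The balance of higher and lower calls depended on the scale. With the 5 dominant models left out and all libraries set to equal totals of the remaining reads, a scale added once the values had been seen, the median feature lay -0.56 log2 units from sham with all libraries and -1.14 without replicate 3. On that scale 10 features were higher and 0 lower with all libraries (1061 at unadjusted p under 0.05), and 247 were higher and 2945 lower without replicate 3. Of the 806 features that had been higher, 779 kept their direction on it and 247 still passed. All 745 that had been lower kept their direction and passed. Equal totals lowered the differences of all features by much the same amount, so the kept direction of the 745 was built in and is no check on them. Among all features, 2879 of 10015 changed direction without replicate 3. Of the 6, ENSRNOG00000013973 and both assembled models passed on this scale, while ENSRNOG00000013280 (log2 difference 3.29, limma adjusted p = 0.0985), ENSRNOG00000023881 (-2.42, 0.213) and ENSRNOG00000009636 (-3.07, 0.0866) kept their direction without passing. For the features that fell, the kept direction was again built in.

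All 3 libraries at 12 h lay on one side of all sham libraries for 1605 of 10020 features (16.0%), 586 higher (5.85%) and 1019 lower (10.2%). For annotated features alone the counts were 450 higher and 903 lower, and for assembled models 136 and 116. Full separation of 3 against 3 libraries, in either direction, has an exact permutation p of 0.1, against which the 16.0% is to be read. Without replicate 3, 5511 features (55.0%) were apart, 2601 higher (26.0%) and 2910 lower (29.0%). Leaving out replicate 1 or 2 instead gave 21.6% and 22%. These shares cannot be set against the 16.0%, as fewer libraries separate more easily by chance. With all libraries on equal totals, 400 were apart as higher (3.99% of the features tested) and 598 as lower (5.97%). On both scales, 160 (1.6%) and 192 (1.92%) were apart in the same direction.

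A set of 183 features (1.83% of those tested, 1.31% higher and 0.519% lower) was past the test without replicate 3. It also had all 12 h libraries, replicate 3 included, beyond all sham libraries on both scales. The 131 that were higher, 91 annotated and 40 assembled, had median counts of 60.8, 51.6 and 33.0 in sham and 240, 312 and 93.1 at 12 h. The 52 that were lower, 43 annotated and 9 assembled, had medians of 72.3, 59.0 and 70.5 in sham and 21.7, 20.6 and 32.3 at 12 h. In both directions replicate 3 had the 12 h median nearest to sham. As the test that formed the set used replicates 1 and 2 alone, this order is partly built in. Among the 131 and the 52, 113 (1.13% of the features tested) and 28 (0.279%) also passed with the factor as a covariate in all 15 libraries. Far fewer passed with the covariate and without replicate 3. The 131 and the 52 lie within 195 higher and 287 lower features that were past the test and apart on the deposited scale. Of these 195 and 287, 26 and 10 passed in that fit, so no more of the 131 and the 52 did. This set was formed after the values were seen and is a description.

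Some features had no reads in a whole group. Such features are members through the other group alone, so a difference follows from the filter, and they are given as a description. An assembled model had 0 reads in all sham libraries and 155, 91 and 64 reads at 12 h, at least 84.4-fold higher against a floor of 3 reads over the group, per read outside the dominant models. It also had 111 to 144 reads at 1 h and 53 to 86 at 6 h, but 0, 123 and 155 at 72 h. A second assembled model had 0 reads in sham and 44, 37 and 58 at 12 h (at least 37.8-fold higher), with 0 in 3 of the 6 libraries at 1 h and 6 h. An annotated feature had 0 reads in all sham, 1 h and 6 h libraries, 26, 7 and 76 reads at 12 h and 0, 21 and 3 at 72 h. Another annotated feature had 15, 22 and 20 reads in sham and 0 in every other library of the series except 72 h replicate 2, which had 7. Another assembled model had 185, 45 and 220 reads in sham and 0 at 12 h (at least 184-fold lower), and 0 in 4 of the other 9 libraries. None of the 5 passed the test with all libraries (limma adjusted p from 0.139 to 0.355). Without 12 h replicate 3 the first and second assembled models did (limma adjusted p = 0.0175 and 0.0301), and the other three did not (0.0857 to 0.233).

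Against 6 h, the nearest time and under the same run label, 0 of 10020 features differed at 12 h in limma (369 at unadjusted p under 0.05). The count in edgeR was 0 as well, with 336 features at unadjusted p under 0.05, and DESeq2 gave 6, of which 4 were higher. Without replicate 3, limma gave 8 features (0.0798%), all lower at 12 h. Each time was also set against sham, and these comparisons share the sham libraries. For the 806 features that were higher without replicate 3, the median log2 differences from sham with all libraries were 0.60 (1 h), 1.32 (6 h), 1.10 (12 h) and 0.81 (72 h). For the 745 that were lower they were -0.28, -0.80, -1.02 and -0.42. Over all features the medians were 0.01, -0.07, -0.06 and -0.06.

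The count tests on the reads recovered from the deposited values gave 6 features in edgeR with all libraries, 5 higher and 1 lower and 4 of them among the 6, and 302 in DESeq2, 224 higher and 78 lower. ENSRNOG00000023881 did not pass in edgeR (adjusted p = 0.0653), nor did the first assembled model (edgeR adjusted p = 0.0807). A limma fit that held the 6 compared libraries and no others gave 0 features, against 906 at unadjusted p under 0.05, with adjusted p of 0.141 to 0.502 for the 6. Without replicate 3 that fit called 1953, edgeR 1347 and DESeq2 1921.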

How the data were processed

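The deposited table holds a signal, reads per feature divided by a factor for each library by the authors. This was worked out from the values: in each library 100% of values lay within 0.01 of a whole multiple of a single step, and the factors (1 over the step) equal those of the median-of-ratios method. Sham replicate 1 has a step close to 1, which tests the recovery less. Bowtie 0.12.2 and the build Rnor_6.0 are named, without a role, per the submitters' processing notes. The sources used here do not give the counting tool, strand setting or annotation, so reads of near-identical or overlapping features cannot be told apart. Per the labels' protocols, blood was drawn into PAXgene tubes and 1 ug of total RNA was sequenced as read pairs of 150 bp.

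Members were tested with limma 3.58.1 (trend, robust; R 4.3.3) on log2(value + 1), a scale that understates changes of low features, with all 15 libraries in 1 fit, two-sided, Benjamini-Hochberg adjusted over 10020 features at 0.05. This test was tried on simulated reads in which each feature had the same spread in all libraries. That trial does not bear on a library that deviates as 12 h replicate 3 did. edgeR 4.0.16 and DESeq2 1.42.0 were run on recovered reads. The members, lists and tests were chosen with earlier results of these data known. The 25 gene lists set for this comparison could not be used (0 tested), and by the rule for that case at most 2 IDs that rose and 2 that fell are printed, from the features past the test. Depth was 31.0 to 37.5 M reads, of which 4.96 to 7.65 M lay outside the dominant models. No pair of the 6 libraries agreed within sampling noise (lowest chi-square per degree of freedom 20.9).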

Additional observations from a re-analysis of the deposited data

Results flagged for a closer look

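With 12 h replicate 3 left out, 8 features differed between 12 h and 6 h in limma, all lower at 12 h, where 0 did with all libraries. The difference between the times was tested directly, in this limma fit alone. No other pseudocount, filter or scale and no count test was run for it without replicate 3. All 8 were also among the features lower at 12 h than in sham without that library. Members were chosen on the sham and 12 h libraries, so features high at 6 h alone could not enter. The 7 annotated features among them had log2 differences of -5.20 to -3.61 and the assembled model -2.33 (SE 0.403, limma adjusted p = 0.0382). The 7 had 0 reads in 12 h replicate 1 and counts of 0 to 8.57 in replicate 2, so the size and the SE of their differences depend on the pseudocount. The first of them had counts of 37.0, 42.9 and 28.6 at 6 h, 28.9, 23.4 and 22.6 in sham, 0 and 0 in 12 h replicates 1 and 2 and 24.3 in replicate 3. In replicate 3 the 7 had counts of 23.6 to 45.2 and the assembled model 517, against 113 and 39.4 in the other two libraries.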

How the results depend on the processing

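For 12 h against sham, 6 features became 302 in DESeq2, 0 in a fit to these libraries alone, 475 with the library factor as a covariate, 3577 with array weights (which gave 12 h replicate 1 a weight of 4.74 and replicate 3 of 0.186), 10 on equal totals and 0 to 1551 with each library left out. Without 12 h replicate 3, 1551 became 80 with the covariate, 3192 on equal totals, and 190 to 1216 with a further library left out: 828 and 513 without sham replicate 2 and 3, and 190 (51 higher, 139 lower) without 12 h replicate 2. For 12 h against 6 h, 0 became 6 in DESeq2, 198 with array weights (57 higher, 141 lower) and 0 to 8 with each library left out. Causes were not tested. TMM, pseudocounts of 0.5 and 5 and other filters kept the first 2 counts within 1.5 times and the third at 0. The log2 differences of the 6 kept their direction under every alternative that held them. Adjusted p of ENSRNOG00000013973 reached 0.291, and 0.0801 with the covariate without replicate 3.

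With the replicate number as a block the counts were 14, 1054 and 0. The same-numbered pairs of 12 h and sham libraries had correlations of 0.158, 0.0432 and 0.357 after the group means were taken off, not all above 0.1, so the numbers were not taken to pair the samples. 12 h replicates 1 and 3 correlated best with the sham library of their own number and replicate 2 with sham replicate 1.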
